A study of Arabidopsis thaliana with 8 samples.

Results

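The plasma membrane proton pump regulators described here are 4 genes of Arabidopsis thaliana: the receptor kinases FER (FERONIA, AT3G51550) and PSY1R (AT1G72300), and the D-clade protein phosphatases AT3G17090 and AT3G51370. They were chosen by name, with 1 probe set per gene, and each of the 4 had exactly 1 probe set naming it alone, among 22746 probe sets tested and 13286 genes with a named probe set. Transcripts were measured in total RNA of whole light-grown seedlings of the Col background, 5 days old, on 8 single-colour arrays, 1 per sample. The tested genotypes were aha1 mutants (3 arrays, the allele aha1-6 on 2 and aha1-7 on 1) and aha2 mutants (3 arrays, the allele aha2-4 on 2 and aha2-5 on 1), set against wild type (2 arrays). AHA1 and AHA2 each encode a proton pump of the plasma membrane, and the labels do not say what each allele does to its gene. A string shared by the sample descriptions places 1 array of each group in the first set (aha1-6, aha2-4 and wild type) and the other 5 arrays in the second. Both arrays that stand for a lone allele, aha1-7 and aha2-5, lie in the second set.

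The plant plasma membrane proton pump uses ATP to acidify the cell wall and to energise the membrane for nutrient uptake and cell expansion. Its C-terminal tail holds the enzyme back, and phosphorylation of that tail switches the pump on or off depending on the residue. FER is a malectin-like receptor kinase that binds the peptide RALF1. That signal leads to an inhibitory phosphorylation of AHA2 and stops root cell expansion. PSY1R, a leucine-rich repeat receptor kinase for the tyrosine-sulphated peptide PSY1, phosphorylates the AHA2 tail and increases proton efflux. D-clade PP2C phosphatases remove the activating phosphate from the penultimate residue of the tail, and SAUR proteins made in response to auxin block them. All of these acts are on the protein, and the arrays measured transcripts only.

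On assembly TAIR10.1, FER lies on chromosome 3 at 19117584 to 19120949, and AT3G51370 on the same chromosome at 19069127 to 19072231, 45352 bases away with 20 annotated genes between them. AT3G17090 lies on chromosome 3 at 5826586 to 5829900, and PSY1R on chromosome 1 at 27217368 to 27221265. The spans from gene start to gene end run from 3105 bp (AT3G51370) to 3898 bp (PSY1R), introns included, and each of the 4 probe sets was among the 11373 brighter ones of those tested. The named probe sets include neither AHA1 nor AHA2, so the genotypes rest on the labels alone. The array of aha1-7 was unlike the rest: its median correlation with the other arrays over the brighter probe sets was 0.887, against 0.959 to 0.971 for the other 7. Here and below, a gene counts as measured if the annotation names a probe set for it alone. Since 8730 of the 22746 tested probe sets had no named gene, the array may also carry probe sets of other listed genes. Of the marker lists only 1 of 8 shoot genes (RCA, the activase of Rubisco) and 3 of 8 root genes (among them PYK10) were measured, and none was at 0 on any array. The summed root marker signal was 32838 to 44941 in aha1, 33999 to 42017 in aha2 and 35620 to 39365 in wild type. PYK10 alone made up 24133 to 39722 of these sums, and the other root markers were apart between the groups. Such separation was shown by 18.8% of all probe sets in aha1 against wild type, 20.9% in aha2 and 16.6% between the mutants. AT3G01190 was at 2951 to 3452 in aha1, 5358 to 6469 in aha2 and 4294 to 4299 in wild type, and AT5G17820 at 1474 to 1767 in aha1, 2284 to 3397 in aha2 and 2078 to 2151 in wild type. Their log2 differences from wild type were -0.41 and -0.38 in aha1 and 0.37 and 0.38 in aha2, and neither passed. RCA was at 43251 to 53869 in aha1, 35270 to 57927 in aha2 and 37054 to 40199 in wild type. The part of tissue composition in the values below was not tested. In RNA of whole seedlings, fewer cells of a type and less RNA per cell cannot be told apart.

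Signal below is the deposited linear intensity, and log2 values are of signal plus 1 after quantile normalization. Folds against the wild type array of a set come from these log2 values, so they differ somewhat from ratios of the signals. FER had a signal of 2619 (first set) and 3745 (second set) on the aha1-6 arrays, and of 7041 on the aha1-7 array. On the aha2-4 arrays it was at 2920 and 3634 in the same order, and at 4167 on the aha2-5 array, while the wild type arrays had 2634 and 3539. The aha1-7 array was therefore the highest of the 8 by a wide margin, and the aha1-6 and wild type arrays of a set had nearly the same signal. Group means were 4468 ± 2298 over the 3 aha1 arrays, 3574 ± 625 over the 3 aha2 arrays and 3086 ± 640 over the 2 wild type arrays (mean ± SD). The groups overlapped in every pairing.

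PSY1R, the receptor that raises pump activity, had a signal of 663 and 1158 on the aha1-6 arrays and of 1017 on the aha1-7 array. It was at 573 and 556 on the aha2-4 arrays and at 684 on the aha2-5 array, while the wild type arrays had 548 and 784. Each aha1 array lay above the wild type array of its own set. After normalization this was by 1.16-fold and 1.46-fold for aha1-6 and by 1.26-fold for aha1-7. The aha2 arrays lay on either side of wild type, at 1.08-fold and 0.752-fold for aha2-4 and 0.912-fold for aha2-5. Within each set every aha1 array was also above every aha2 array, as was the case for 14.6% of all tested probe sets. Over the sets together the groups overlapped, because the aha1-6 array of the first set (663) was below the aha2-5 array of the second (684). Group means were 946 ± 255 over the 3 aha1 arrays, 604 ± 69.5 over the 3 aha2 arrays and 666 ± 167 over the 2 wild type arrays (mean ± SD).

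**Figure D1:**
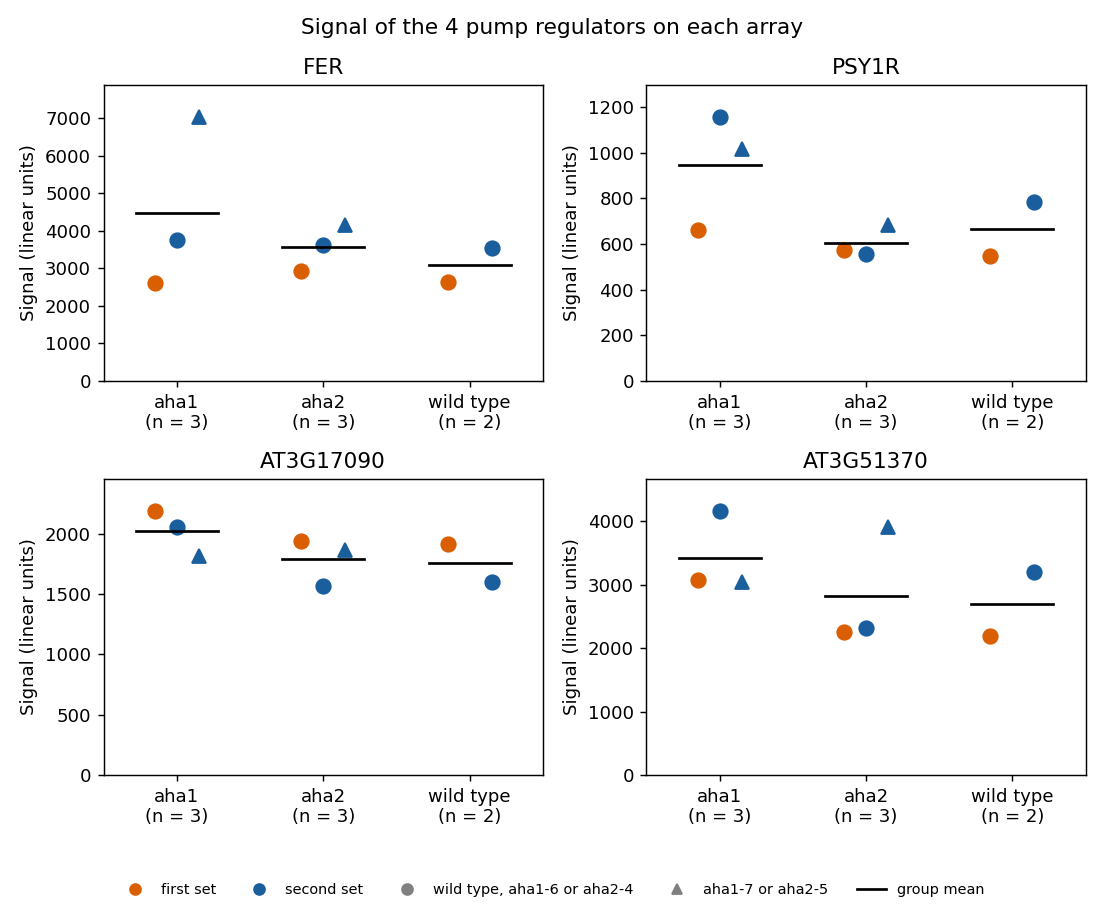
Signal in linear units of FER, PSY1R, AT3G17090 and AT3G51370 on each array, by group, with colour for the array set, triangles for aha1-7 and aha2-5, and a line at the group mean. FER on the aha1-7 array (7041) stands above every other FER value, and the groups overlap for each gene.

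The phosphatase AT3G17090 varied least among the 4. Its signal was 2191 and 2051 on the aha1-6 arrays and 1815 on the aha1-7 array, 1936 and 1564 on the aha2-4 arrays and 1867 on the aha2-5 array, and 1915 and 1596 in wild type. The highest array was 1.40-fold above the lowest, and its log2 range of 0.48 was wider than that of only 12.3% of the brighter probe sets, whose median range was 0.81. All 3 aha1 arrays were above the wild type array of their set, by 1.097-fold to 1.276-fold. Since wild type of the first set (1915) exceeded aha1-7 of the second (1815), the groups overlapped.

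The phosphatase AT3G51370 had a signal of 3067 and 4170 on the aha1-6 arrays and of 3040 on the aha1-7 array. It was at 2250 and 2319 on the aha2-4 arrays and at 3904 on the aha2-5 array, and wild type had 2191 and 3203. Arrays of a mutant group lay on both sides of wild type here, and aha1-7 and aha2-5 had 1 array each. The wild type arrays themselves were 0.56 apart on the log2 scale. Both aha1-6 arrays were above the wild type array of their set, by 1.43-fold and 1.31-fold, while aha1-7 was at 0.926-fold. The aha2-4 arrays were at 1.03-fold and 0.721-fold of wild type and the aha2-5 array at 1.20-fold. Group means were 3426 ± 645 over the 3 aha1 arrays, 2824 ± 936 over the 3 aha2 arrays and 2697 ± 716 over the 2 wild type arrays (mean ± SD).

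The comparison of aha1 with wild type asks whether transcripts of the pump regulators differ in plants mutant for one of the pumps. In a linear model with group and array set over all 8 arrays (limma, Benjamini-Hochberg over 22746 probe sets), none of the 4 passed an adjusted p of 0.05, and neither did any other probe set (0 called, 0% of those tested). At an unadjusted p under 0.05 the count was 0 of the 4 and 1139 of all (5.01%). All 4 fitted differences were above zero, from 0.22 to 0.38 on the log2 scale, with a median of 0.33 against 0.00 over all tested probe sets. In the fit PSY1R had a 1.298-fold higher level in aha1 (log2 difference 0.38, SE 0.23, 95% confidence interval 0.883-fold to 1.91-fold, limma adjusted p = 0.937). FER was at 1.28-fold (interval 0.718-fold to 2.27-fold), AT3G51370 at 1.23-fold (0.743-fold to 2.03-fold) and AT3G17090 at 1.17-fold (0.855-fold to 1.59-fold). The intervals leave room for a change of up to about these bounds in either direction and do not show that the genes are alike in aha1 and wild type. For FER the fitted value rests on 1 array: without aha1-7 the log2 difference was 0.05 (SE 0.15), against 0.35 (SE 0.34) with it. Without that array PSY1R had 0.38, AT3G17090 0.28 and AT3G51370 0.46, each about as large as with it or larger. With 1 array left out AT3G51370 ran from 0.18 (without the wild type array of the first set) to 0.46 (without aha1-7). With the trend with gene length removed the 4 values were 0.27 for FER and PSY1R, 0.23 for AT3G51370 and 0.14 for AT3G17090. No member had every aha1 array above or below every wild type array, a separation shown by 18.8% of all probe sets. Within sets, PSY1R and AT3G17090 had all 3 aha1 arrays above wild type, where 18.5% of all probe sets did.

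For aha2 against wild type, the 4 genes lay close to zero in the same fit. FER had a log2 difference of 0.09 (SE 0.34), AT3G17090 of 0.09 (SE 0.18), AT3G51370 of -0.02 (SE 0.30) and PSY1R of -0.14 (SE 0.23). The median of 0.03 compares with -0.01 over all probe sets. None of the 4 passed and 0 probe sets were called (0%; limma, smallest adjusted p among the 4 of 0.9998), and at an unadjusted p under 0.05 the count was 0 of the 4 and 919 of all (4.04%). In folds the intervals ran from 0.600 to 1.899 for FER, from 0.778 to 1.45 for AT3G17090, from 0.596 to 1.63 for AT3G51370 and from 0.619 to 1.34 for PSY1R. FER was the member with all 3 aha2 arrays above wild type of their set, although on the aha2-4 array of the second set by only 0.0009 on the log2 scale. This pattern was shared by 18.6% of all probe sets, and no member had all 3 below, as 19.2% did. The arrays of aha2 and wild type overlapped for each of the 4, where 20.9% of probe sets were separated. The sign for AT3G51370 was not stable, and it turned positive when the set was left out of the model (0.04). Both mutants were compared with the same wild type arrays, so these results and those for aha1 are not independent.

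The direct comparison of the mutants does not use the wild type arrays as a reference. Again all 4 differences were above zero, with a median of 0.29 against 0.02 over all probe sets. With the trend with gene length removed from each array they were 0.32 for PSY1R, 0.20 for AT3G51370, 0.11 for FER and -0.012 for AT3G17090, each lower by more than 1.5 times and the last turned. In the fit without that step 0 of 22746 probe sets were called (0%). PSY1R had a fitted ratio of 1.43-fold in aha1 over aha2 (log2 difference 0.51, SE 0.20, interval 1.01-fold to 2.01-fold). Its unadjusted p was 0.0442, a level that 2417 probe sets (10.6%) reached, and it did not pass the correction (limma, adjusted p = 0.463). The unadjusted p stayed under 0.05 in 7 of 18 alternatives, and was 0.179 with the length trend removed, 0.0939 with the set as a random block and 0.102 with no block for the set (limma). With 1 array each in the first set the difference was 0.10, and between the means of 2 arrays each it was 0.71 in the second. AT3G51370 had 0.32 (SE 0.26), FER 0.26 (SE 0.30) and AT3G17090 0.13 (SE 0.16). With 1 array left out AT3G51370 ran from 0.12 (without the aha2-4 array of the second set) to 0.53 (without aha2-5), and AT3G17090 from 0.067 to 0.22 without the same arrays. For FER the direction turned without the aha1-7 array, to -0.07 (SE 0.14). The arrays of both groups overlapped for every member, where 16.6% of all probe sets were separated. The root marker genes AT3G01190 and AT5G17820 had log2 differences of -0.78 and -0.76 in this comparison (limma, unadjusted p = 0.00357 and 0.0100, adjusted p = 0.341 and 0.389), while PYK10 had 0.16, and their part in the member values was not tested.

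**Figure D2:**
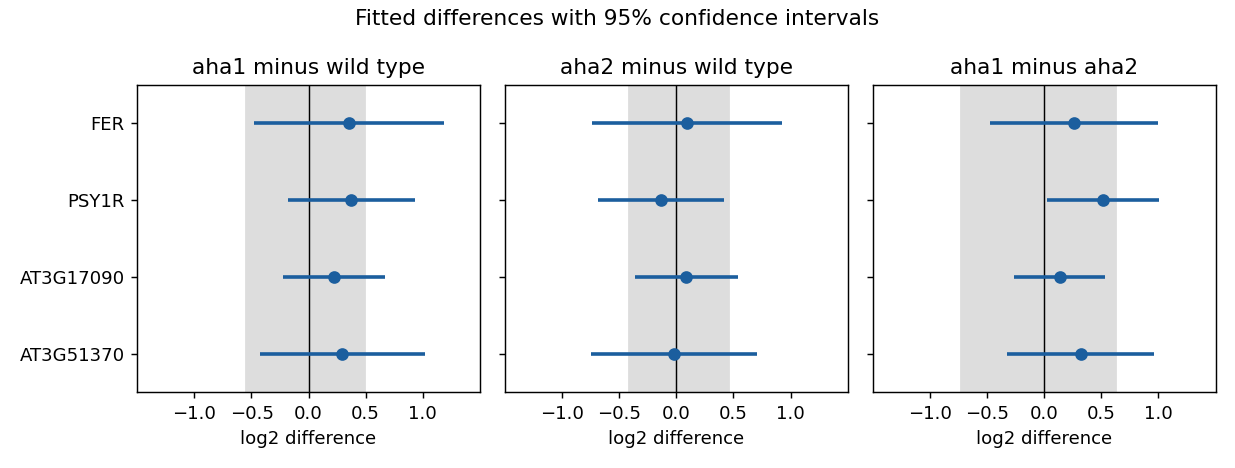
Fitted log2 differences of the 4 regulators for aha1 minus wild type, aha2 minus wild type and aha1 minus aha2 (points) with 95% confidence intervals (lines). The grey band holds the central 95% of the fitted differences of the 11373 brighter probe sets. All 12 points lie inside the band, and the interval of PSY1R in aha1 minus aha2 (from 0.018 to 1.004) is the one that leaves out zero, which it did not do with the gene length trend removed.

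The alleles were then fitted as separate genotypes, with the lone aha1-7 and aha2-5 arrays assumed to vary like the others and 2 residual degrees of freedom. FER on the aha1-7 array was 2.09-fold above wild type (log2 difference 1.06, SE 0.19) and 2.02-fold above aha1-6 (1.01, SE 0.19). Neither passed over all probe sets (limma, adjusted p = 0.167 and 0.162), where 0% were called and 21.6% had an unadjusted p under 0.05 in either comparison. With the dimmest 50% of probe sets left out, both passed (limma, adjusted p = 0.00301 and 0.00364). So did 34.3% of the 11373 brighter probe sets in aha1-7 against wild type and 32.9% against aha1-6. In the other allele, aha1-6, FER was at 0.05 (SE 0.15) against wild type, with an interval of 0.763-fold to 1.41-fold. Higher FER transcript was thus seen on 1 of the 3 aha1 arrays and not on either aha1-6 array.

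For PSY1R the log2 differences from wild type were 0.38 (SE 0.27) for aha1-6 and 0.36 (SE 0.34) for aha1-7. Between aha1-7 and aha1-6 the difference was -0.02, within an interval of 0.490-fold to 1.99-fold. With the length trend removed the nearness was lost, with 0.37 for aha1-6, 0.033 for aha1-7 and -0.33 (SE 0.33) between them. AT3G51370 was at 0.45 (SE 0.20) in aha1-6 and at -0.0031 (SE 0.25) in aha1-7. It was also the member with the widest gap between the aha2 alleles, 0.59 (SE 0.25) higher on the 1 aha2-5 array than in aha2-4. The size of this difference exceeded that of 96.6% of the brighter probe sets. That gap did not pass (limma, adjusted p = 0.851; 0% called, 6.01% at an unadjusted p under 0.05). AT3G17090 had 0.28 in aha1-6, 0.12 in aha1-7, 0.01 in aha2-4 and 0.24 in aha2-5, each within 2 SE of zero. For aha2-5 against aha2-4 the other fitted values were 0.05 (SE 0.34) for PSY1R, 0.16 (SE 0.19) for FER and 0.23 (SE 0.19) for AT3G17090, none of which passed. None of the 4 was called in aha1-6 or aha2-4 against wild type, nor in aha2-5, where 7.14%, 6.31% and 6.92% of all probe sets had an unadjusted p under 0.05 and 0% were called.

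Deviations on the aha1-7 array moved with gene length, and the 4 regulators are of similar length. Taken over 5883 brighter named genes (genes of 1 array, so no independent replicates), Spearman's rho between the deviation of aha1-7 from the other arrays and gene length was 0.69, against -0.30 to 0.28 for the other 7. The 805 brighter genes with a span between those of the shortest and the longest member had a median deviation of 0.35 on that array. FER deviated by 1.17 there, above 98.4% of these 805 genes. PSY1R deviated by 0.51, above 67.5% of them, whereas AT3G51370 (0.02) and AT3G17090 (-0.10) lay above only 20.1% and 12.8%. With each array's length trend removed, the FER difference of aha1-7 from wild type was 0.80 (SE 0.20; limma, adjusted p = 0.306), and those of PSY1R, AT3G51370 and AT3G17090 were 0.03, -0.22 and -0.14. On the aha1-6 array of the second set, PSY1R deviated by 0.85 and AT3G51370 by 0.61, above 99.6% and 97.1% of the genes of like length, whose median was 0.09 there. AT3G51370 also lay far out on other arrays, at 0.47 on aha2-5 (above 96.3%) and -0.49 on the first wild type array (above 2.24%). FER was at 0.40 on aha2-5 (above 93.8%) and PSY1R at -0.40 on the first wild type array (above 5.34%).

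**Figure D3:**
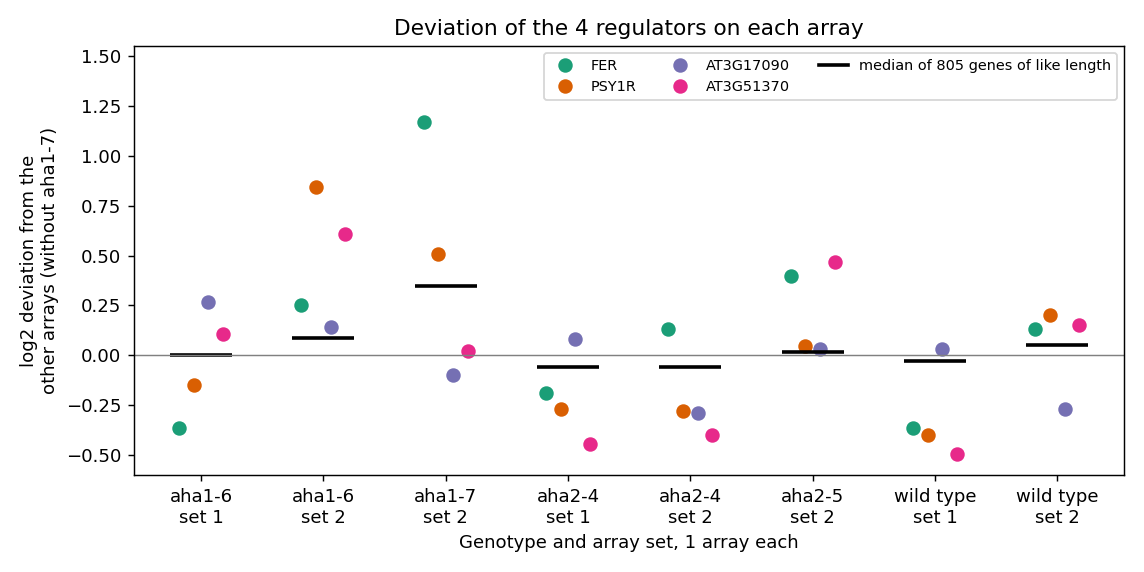
Log2 deviation of each regulator on each of the 8 arrays from the mean of the other arrays, aha1-7 left out of that mean, with a bar at the median of the 805 brighter genes of like length. FER is farthest from zero on the aha1-7 array (1.17), where the bar is also highest (0.35).

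For 3 genotypes an array of each set could be compared. FER was higher in the second set than in the first by 0.53 in aha1-6, 0.27 in aha2-4 and 0.42 in wild type. AT3G51370 was higher by 0.43, 0.04 and 0.56 in the same order of genotypes. PSY1R differed by 0.85 in aha1-6 and 0.52 in wild type, and by -0.01 in aha2-4. AT3G17090 went the other way, by -0.11, -0.32 and -0.26. The model with group and set takes aha1-7 and aha2-5 into the second set, so its set term also carries these alleles, and for FER it exceeded all 3 gaps above. The set term (second minus first) was 0.62 (SE 0.27) for FER, 0.46 (SE 0.18) for PSY1R, 0.36 (SE 0.24) for AT3G51370 and -0.21 (SE 0.15) for AT3G17090, and none passed (limma, adjusted p = 0.555, 0.539, 0.647 and 0.660). Over all probe sets 0% were called for the set and 9.15% had an unadjusted p under 0.05, PSY1R among them (limma, unadjusted p = 0.0454, adjusted p = 0.539). In all 3 genotypes the second set was above the first for 20% of probe sets, FER and AT3G51370 among them, and below it for 18.1%, AT3G17090 among them. What differed between the sets is not given beyond the shared string.

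Related genes were taken from 6 lists made from general knowledge of the pathway: relatives of FER, partners of FER, PSY and PSK peptide signalling, the remaining D-clade phosphatases, 14-3-3 proteins that bind the activated pump tail, and other regulators of the pump. Of their 85 genes 20 had a named probe set (0 of the 13 14-3-3 genes), so the lists are described only in part. None of the 20 was called in any comparison of groups. At an unadjusted p under 0.05 there were 0 in aha1 against wild type (5.01% of all probe sets), 0 in aha2 against wild type (4.04%) and 1 in aha1 against aha2 (10.6%). Their median log2 difference was -0.03 in aha1 and 0.01 in aha2 against wild type, with 9 and 10 of 20 above zero. Unlike the members, most of the 20 were among the dimmer probe sets. Of the brighter ones, AT3G12620, AT3G55050, AT5G06970 and AT2G01820 were at 0.18, 0.20, 0.33 and 0.38 in aha1 against wild type. The others, THE1, AT3G47295 and AT2G29995, were at -0.04, -0.12 and -0.24.

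Among the 9 D-clade phosphatases considered, 4 were measured: the 2 members, AT3G55050 and AT3G12620. All 4 had a fitted difference above zero in aha1 against wild type, of 0.20 for AT3G55050 and 0.18 for AT3G12620 beside the members' 0.22 and 0.30, and none passed (limma, adjusted p from 0.937 to 0.941). AT3G55050 had a signal of 1750, 1782 and 1689 in aha1, 1446, 1486 and 1532 in aha2, and 1400 and 1568 in wild type. Every aha1 array was thus above every wild type and every aha2 array, as for 9.99% and 8.56% of all probe sets. AT3G12620 was at 1835 and 1849 on the aha1-6 arrays but at 1429 on the aha1-7 array, below both wild type arrays (1531 and 1441). In aha2 the 4 phosphatases lay between -0.07 and 0.09.

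Of 16 relatives of FER 11 were measured, and only THE1 (THESEUS1, a receptor kinase that senses the state of the cell wall) was among the brighter probe sets. THE1 had a mean signal of 1496 ± 334 over the 3 aha1 arrays, 1341 ± 371 over the 3 aha2 arrays and 1437 ± 6.45 over the 2 wild type arrays (mean ± SD). Its log2 difference was -0.04 in aha1 and -0.16 in aha2 against wild type. Like FER it was highest on the aha1-7 array, at 1881. The 11 relatives had a median of -0.20 in aha1 and of -0.09 in aha2 against wild type, with 4 above zero in each. ANX1 and ANX2, receptor kinases known from pollen tubes, had mean signals of 11.5 and 10.4 in aha1, 7.37 and 16.5 in aha2, and 23.6 and 22.3 in wild type, all dim signals. The relative with the smallest p in any comparison, AT5G24010, was at 448 ± 104 over the 3 aha1 arrays, 315 ± 37.5 over the 3 aha2 arrays and 340 ± 30.0 over the 2 wild type arrays (mean ± SD). Its log2 difference between aha1 and aha2 was 0.40 (SE 0.20; limma, adjusted p = 0.512), and 0.22 without aha1-7. AT2G21480, a dim relative at 6.05 to 18.3 in aha1 and 10.13 to 57.5 in aha2, had -1.46 (SE 0.75) in that comparison (limma, adjusted p = 0.513).

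On the list of PSY and PSK signalling 2 of 16 genes were measured. AT2G29995 was at 1158 ± 411 over the 3 aha1 arrays, 1634 ± 116 over the 3 aha2 arrays and 1333 ± 154 over the 2 wild type arrays (mean ± SD). Every aha2 array of this gene was above every wild type and every aha1 array, as for 10.7% and 8.09% of all probe sets, and its aha1 minus aha2 difference of -0.60 did not pass (limma, adjusted p = 0.508) and was -0.27 without aha1-7. The aha1-7 array, at 689, was the lowest of the 8. AT3G47295 had 2838 ± 1080 over the 3 aha1 arrays, 3157 ± 795 over the 3 aha2 arrays and 3012 ± 64.7 over the 2 wild type arrays (mean ± SD). The 1 measured gene on the list of FER partners, AT2G41970, had a log2 difference of -0.33 in aha1 against aha2 (SE 0.44).

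Among the other regulators of the pump 4 of 19 were measured. AT2G01820 was at 2713, 3593 and 6303 on the aha1-6 arrays and the aha1-7 array, at 2237, 2648 and 3273 in aha2, and at 2637 and 3192 in wild type. It thus stood highest on the same array as FER, and its aha1 minus aha2 difference of 0.59 did not pass (limma, adjusted p = 0.502) and was 0.30 without that array. AT5G06970 was at 1494 ± 136 over the 3 aha1 arrays, 1146 ± 249 over the 3 aha2 arrays and 1142 ± 216 over the 2 wild type arrays (mean ± SD), with every aha1 array above both wild type arrays. With AT3G55050 and AT5G24010 that made 3 of the 24 regulators and related genes, beside 9.99% of all probe sets. For 1 of the 24, the dim AT4G39110, every aha1 array was below both wild type arrays once normalized, where 18.8% of all probe sets were apart in either direction. By deposited signal these groups overlapped for AT4G39110, since in the first set the aha1-6 array was above the wild type array. After normalization every aha2 array was above both wild type arrays for 3 of the 24, beside 10.7% of all probe sets. AT4G14480 (BLUS1, a kinase of blue light signalling in guard cells) was at 366 ± 54.9 over the 3 aha1 arrays, 402 ± 68.1 over the 3 aha2 arrays and 320 ± 29.7 over the 2 wild type arrays (mean ± SD). AT1G24650 was the 1 related gene with an unadjusted p under 0.05 (aha1 minus aha2 -2.05, SE 0.69; limma, adjusted p = 0.415), on signals of only 2.99 to 51.0 in aha1 and 48.6 to 113 in aha2. Without the aha1-6 array of the first set it was -1.11.

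**Figure D4:**
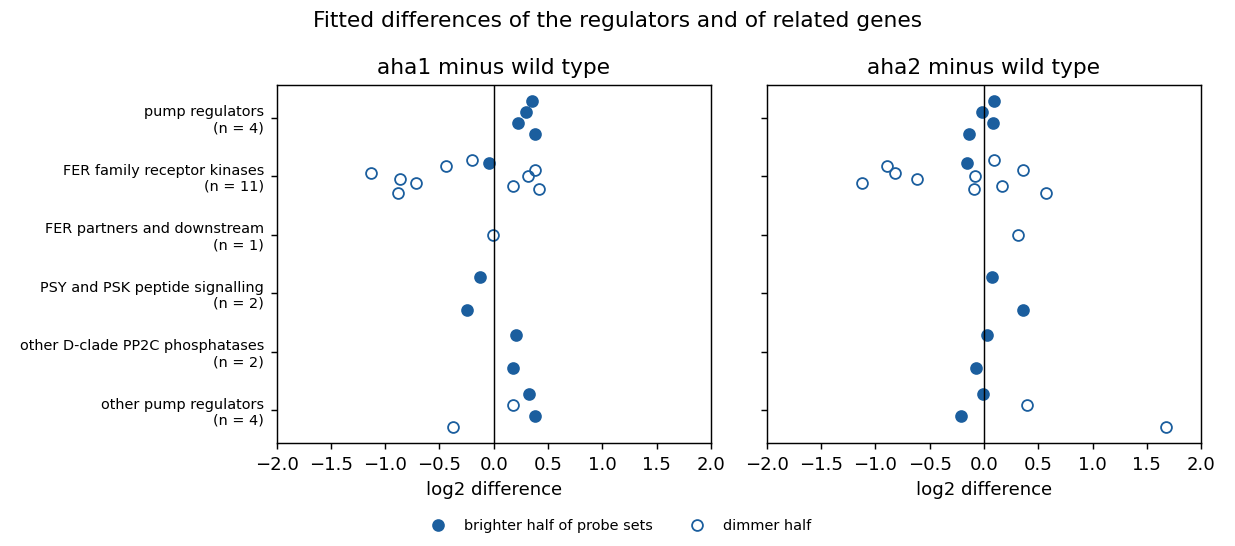
Fitted log2 differences of the 4 regulators and 20 related genes by list, for aha1 minus wild type and aha2 minus wild type. Filled points are among the 11373 brighter probe sets and open points among the dimmer ones. The 4 regulators lie between 0.22 and 0.38 in aha1 and between -0.14 and 0.09 in aha2, and the widest values belong to dim probe sets.

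The members did not share a single pattern over the arrays. Pearson's r over the 8 arrays, given as a description of values that share array sets and normalization, was 0.76 for PSY1R with AT3G51370 and 0.67 for FER with PSY1R. The 2 phosphatases had 0.26 with each other, and FER with AT3G17090 had -0.37. Without the aha1-7 array these values were 0.85, 0.61, 0.27 and -0.40. FER and its neighbour AT3G51370 had 0.34 with that array and 0.64 without it.

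For each member the 3 most similar profiles were sought among 5882 other brighter named genes, by r over 8 arrays. With so many candidates and so few arrays, high values arise for unrelated profiles too, and no reference level was computed. Closest to PSY1R were AT3G44970 (0.98), AT1G19110 (0.98) and GME (0.97), the last an epimerase in ascorbate synthesis, with 0.98, 0.98 and 0.97 when aha1-7 was left out. Closest to FER were AT5G23340 (0.99), AT2G40980 (0.97) and AT1G61690 (0.97). Their r without aha1-7 was 0.97, 0.88 and 0.89, so that 13, 111 and 102 other genes were then closer. For AT3G17090 the closest were AT1G31870 (0.95), AT3G03870 (0.95) and AT4G03030 (0.94), and for AT3G51370 AT2G48100 (0.95), AT2G45920 (0.94) and AT1G78450 (0.93). Of the 5882 candidates 158 genes had an r above 0.9 with FER and 80 with PSY1R, against 6 with AT3G17090 and 8 with AT3G51370.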

How the data were processed

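Each deposited value is an intensity on a linear scale, 1 per probe set and array. The submitters' processing notes name Affymetrix Expression Console 1.1, and how probes were summarised is not given in the sources used. The 2% trimmed mean was 1000.1 on every array, while medians ran from 358.1 to 410.2. Of 22810 probe sets 64 were controls. Values were taken as log2(value + 1), quantile normalized, and fitted by group and array set in R 4.3.3 using limma 3.58.1 with its eBayes step, which left 4 residual degrees of freedom. P-values were Benjamini-Hochberg adjusted over all 22746 tested probe sets, and fold changes are on the log2(value + 1) scale. A run on simulated data checked only that the group fit returned known differences on average. Those data held no set shifts and no gene length trend, and the allele fits were not part of it. The platform annotation gave 1 gene for 13513 probe sets, several for 503 and none for 8730, with symbols updated through RefSeq (TAIR10.1). Of a gene's probe sets the brightest was used. Each fixed list names up to 3 genes with the smallest p, beside any relative of FER or D-clade phosphatase. Members and lists were chosen with earlier results of these data known. AT3G01190, AT5G17820, PYK10, RCA, AT4G14480 and the set differences were named after their values were seen. The labels do not say whether a group's samples were grown separately. P-values therefore reflect only the variation among the samples at hand, possibly technical. The number of arrays limits the precision.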

Additional observations from a re-analysis of the deposited data

How the results depend on the processing

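Across 312 alternatives for the 36 member differences (12 between groups, 24 between alleles), 294 kept direction and side of the threshold. The 2 that passed were FER in aha1-7 against wild type and against aha1-6 with the dimmest 50% of probe sets left out (1.06 and 1.01). Fewer probe sets were tested there, and at nearly the same SE the 95% intervals were narrower. For aha1-7 against wild type the interval was 1.57-fold to 2.79-fold there, against 1.41-fold to 3.10-fold over all probe sets. The eBayes step sets the degrees of freedom in part from all fitted probe sets, and aha1-7 still had 1 array. In 16 the direction turned, all for differences that had not passed. AT3G51370 in aha2 against wild type was 0.039 with no replicate block (set left out), 0.033 with set as a random block, 0.032 with the gene length trend removed, 0.046 with median centring, and -0.21 to 0.15 with 1 array left out. FER in aha1 against aha2 was -0.025 on the first alleles alone, -0.074 on the brighter probe sets without aha1-7 (an alternative chosen after seeing the data), and -0.074 to 0.46 with 1 array left out. FER in aha2 against wild type ran from -0.055 to 0.22 with 1 array left out. With the length trend removed AT3G17090 was -0.012 in aha1 against aha2 and -0.14 in aha1-7 against wild type. With median centring AT3G51370 was 0.011 in aha1-7 against wild type and PSY1R 0.018 in aha1-7 against aha1-6. Of the related genes, AT3G47295 (aha1 against aha2) was 0.34 on the first alleles, 0.16 on the brighter probe sets without aha1-7, and -0.44 to 0.16 with 1 array left out. AT2G41970 was 0.031 on the first alleles and -0.71 to 0.16 with 1 array left out, and ANX1 in aha2 against wild type -2.29 to 0.29. The cause was not tested. PSY1R stayed above zero in aha1 against wild type and against aha2 in all 18 alternatives of each, from 0.27 to 0.55 and from 0.32 to 0.72, and its smallest adjusted p was 0.124 (brighter probe sets without aha1-7).

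The number of probe sets called was 0 in each comparison. With the dimmest 50% left out it was 3 in aha2 against wild type, 20 in aha1 against aha2, 53 in aha1-6, 3899 in aha1-7, 65 in aha2-4 and 17 in aha2-5 against wild type, 3739 in aha1-7 against aha1-6, and 2 in aha2-5 against aha2-4. Without aha1-7 as well it was 28 in aha1 and 61 in aha2 against wild type and 358 in aha1 against aha2. With 16 added before the logarithm it was 1 in aha1-7 against wild type. No member was among these calls apart from FER as given above. Averaging a gene's probe sets could not be run, since each member has 1. Arrays carry no replicate numbers in the labels, and the set was the block.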
